A study of Rattus norvegicus with 11 samples.

Results

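Acute phase proteins are plasma proteins whose output changes within hours of infection or injury. Of the 8799 probe sets in the series, 21 read 9 of the 4737 annotated genes, namely Lbp, Hp, Orm1, Serpina3n, Serpina1, A2m, Fgg, Crp and Cp. A probe set is a group of short probes whose signals are merged into a single reading. Every probe set annotated with a member as its only gene symbol was taken, bright or dim. The samples were 11 Affymetrix rat arrays carrying total RNA of heart ventricle from Fischer-344 rats, an inbred strain used in studies of ageing. Rats of 22 months made up the old group, with 6 arrays, and rats of 4 months the young group, with 5. The labels name no treatment or genetic change in either group and do not say whether arrays came from separate animals, so p-values reflect only array-to-array spread, part or all of which may be technical. The question was which ventricular transcripts differ between these ages.

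Most acute phase proteins are made by hepatocytes. Interleukin-6 acts on them through its receptor, gp130 and the transcription factor STAT3, and interleukin-1 acts through NF-kappaB and factors of the C/EBP family. Fat cells, macrophages and other cells outside the liver can also make haptoglobin, ceruloplasmin, orosomucoid and some serpins. In the rat alpha-2-macroglobulin is a classic strongly induced acute phase protein, whereas C-reactive protein is plentiful in rat plasma without inflammation.

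The arrays were not alike in every control. Bacterial transcripts added as spike-ins read brighter on 5 arrays (old replicates 3 to 6 and young replicate 4, mean log2 11.97 to 15.24) than on the other 6 (9.55 to 10.20), so that most old arrays were bright and most young ones dim. Old replicates 3 and 4 had GAPDH 3' over 5' log2 ratios of 3.39 and 4.09, against 0.07 to 0.77 elsewhere, a ratio that increases as RNA is degraded. Each member was therefore also fitted with spike-in class as a blocking term, in the classes separately, and without those 2 arrays. Old replicate 3 stood apart in other ways too: of all arrays it had the highest Il6 (1285.2), Lyz2 (35868), Lcn2 (457.2), Timp1 (3540.4) and Cebpb (1794.4) and the lowest Ckm (8519). Other inflammatory genes went the other way on it, with the lowest Cd14 of all arrays (253.9) and the lowest old S100a8 (38.5). These genes were named after their values were seen. Of the 14 tested member probe sets 9 were higher in old without old replicate 3, and 0 passed, as with all arrays. As a check of the tissue, the standing probe sets of Myh6, Myl2, Myl3, Tnnt2, Tnni3, Actc1 and Ckm summed to 311339 to 499014 in old and 308295 to 464932 in young, with 3 higher and 4 lower in old. Ckm, the muscle creatine kinase, differed by -0.67 ± 0.30 (SE, limma adjusted p = 0.614), with every old array below every young one. Mb, the last of the 8 ventricle markers listed, was not among the annotated genes.

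No acute phase transcript passed the test between old and young ventricle. Of the 21 probe sets, 14 were bright enough on average to be tested, which covered all 9 genes. With limma and Benjamini-Hochberg adjustment over the 5244 probe sets tested, 0 of the 14 had an adjusted p under 0.05 (smallest 0.56), as for 0% of the table. At an unadjusted p under 0.05 there were 2, Lbp and 1 of the Cp probe sets, both higher in old, where 3.39% of the table was higher and 4.12% lower at that level. By sign, 9 of 14 were higher in old, against 49.4% of the table. That count moved with the fit: it was 7 of 14 with spike-in class blocked (49.5% of the table) or with brightness as a covariate (50.9%), and 6 of 14 among bright arrays (44.1%). It was 8 of 14 with each array centred on its median (30.9%), and 11 of 14 without the arrays of high GAPDH ratio (50.7%). Their median difference, old minus young on the log2 scale, was 0.49, against -0.01 for all probe sets tested. The old and young readings did not overlap for 0 of 14, against 0.973% of the table. Probe sets of the same gene share their target, so these counts are not counts of independent measurements. In ventricle pieces, fewer cells of a type and less RNA per cell cannot be told apart.

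The other 7 member probe sets fell below the filter on dim signals, and 6 of them read higher in old. Of all 3496 dim probe sets, 70.9% read higher in old. Without the filter, 2 of the 21 had an unadjusted limma p under 0.05, both higher in old, beside 3.91% of the 8740 probe sets then fitted.

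**Figure D1:**
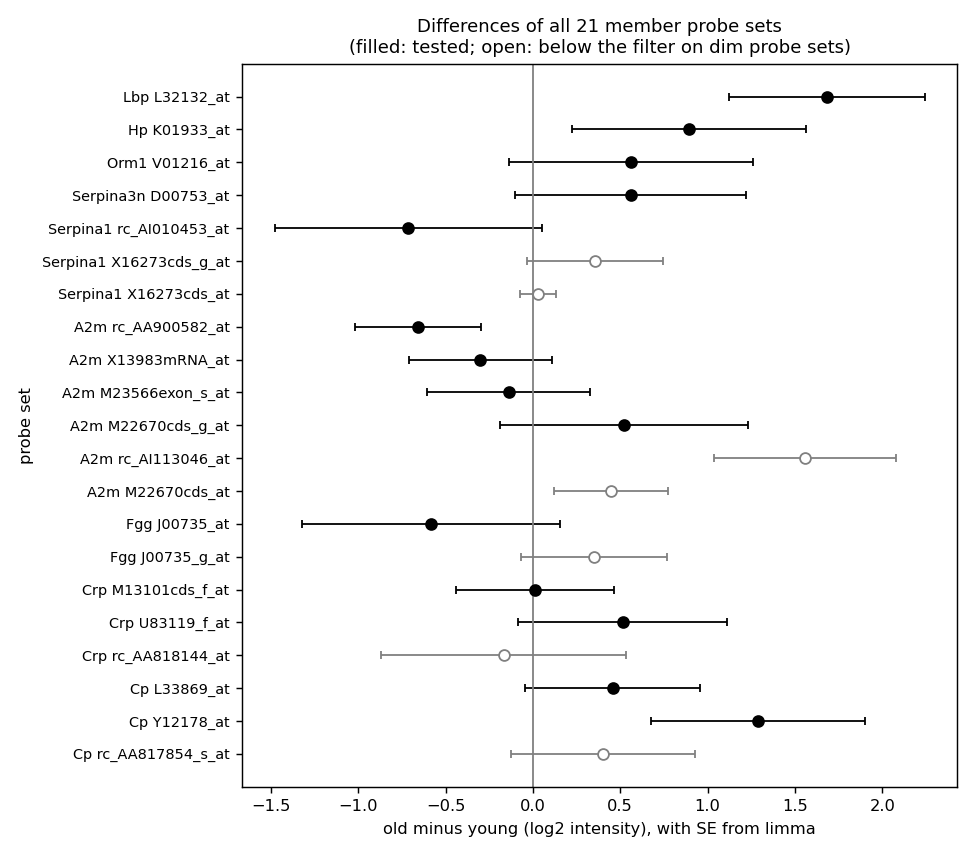
Difference between old and young for each of the 21 member probe sets (x axis, log2 intensity, old minus young; y axis, gene and probe set), with bars for the limma standard error. Filled points are the 14 tested probe sets and open points the 7 dim ones, whose errors come from the fit without filter; Lbp lies farthest to the right at 1.68, and A2m has points on both sides of 0.

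Lbp encodes the lipopolysaccharide-binding protein, which passes bacterial endotoxin to CD14 and TLR4. Its probe set (L32132_at) had deposited intensities of 119.2, 331.4, 132.6, 51.7 and 152.4 in young replicates 1 to 5. In old it ran from 179.9 through a median of 539 to 726.7. Thus 4 of the 6 old arrays lay above every young one, and the overlap came from young replicate 2 and from old replicates 1 and 5. The mean log2 intensity of the old arrays was 8.74 ± 0.78 (SD, n = 6). That of the young arrays was 7.05 ± 0.96 (SD, n = 5). The difference of 1.68 ± 0.56 (SE), a 3.21-fold ratio, had a 95% interval of 0.51 to 2.86 and limma p-values of 0.00735 unadjusted and 0.56 adjusted. Without young replicate 2, the only young array above any old one, the groups no longer overlapped, and the difference was 2.01 ± 0.58. Leaving out that array removes the overlap by choice and is no support for a difference.

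Lbp was higher in old in all 26 alternative fits, by 1.16 to 3.13. Some of these, such as other filters or no trend, leave the difference at 1.68 by design and could not turn its sign. With spike-in class blocked the difference was 1.90 ± 0.63, among dim arrays 1.16 ± 0.61, among bright arrays, which hold 1 young array, 3.13 ± 1.34, and without the arrays of high GAPDH ratio 1.40 ± 0.63. Its adjusted limma p over these fits ran from 0.162 to 0.999. Of the receptors that receive endotoxin from Lbp, Cd14 differed by -0.31 ± 0.45 (SE), and Tlr4 was dim. Among hepatocyte, fat cell and macrophage markers, Alb, Otc, Cfd and Lyz2 had differences of like size. The rest of these lists did not share a direction. Alb, the hepatocyte's main secreted protein, differed by 1.87 ± 0.58 and ran from 121.6 to 576.0 in old and from 39.8 to 170.8 in young. Cfd, the fat cell's adipsin, differed by 1.69 ± 0.61, and ran from 91.1 to 1180.4 in old and from 100.9 to 313.1 in young. Otc, a urea cycle enzyme, differed by 2.16 ± 0.61, and the macrophage marker Lyz2 by 1.49 ± 0.65. Of the other hepatocyte markers Apoa1 differed by -0.74, Apoc3 by -0.51 and Cyp2e1 by 0.06. Of the other fat cell markers Plin1 differed by 0.84, Fabp4 by 0.81, Lep by -0.39 and Lpl by -0.62. The macrophage marker Ptprc differed by 0.82. The part of these cells in the Lbp difference was not tested.

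Crp encodes C-reactive protein, a pentraxin that binds phosphocholine on microbes and damaged cells. The brighter of its readings come from family probe sets, marked f, which are designed to read several related sequences. A further probe set was left out because its annotation named both Crp and the unrelated gene Serinc1. Whether either family probe set reads Crp RNA at all is uncertain, because their readings could come from other sequences, so values given under Crp are those of the probe sets so annotated. Without the 2 of them, 7 of 12 tested member probe sets were higher in old, with a median difference of 0.49, an alternative chosen after seeing the data. M13101cds_f_at read 606.5, 903.4, 481.4, 379.2 and 1261.3 in young replicates 1 to 5 and 295.3 to 1166.2 in old, with a median of 747. The ranges almost coincided, and the difference was 0.01 ± 0.45 (SE), with a 95% interval of -0.93 to 0.95 and a direction that turned in 10 of 26 fits.

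U83119_f_at read 549.7, 917.2, 761.5, 63.3 and 972.5 in the young arrays, so that young replicate 4 stood far below the rest. In old it ran from 408.7 to 1081.7, with a median of 719. Its difference of 0.51 ± 0.60 (SE) became -0.21 ± 0.42 without young replicate 4 and 1.41 ± 0.52 with spike-in class blocked. Young replicate 4 is the only young array of the bright class, and among the 6 dim arrays the difference was 0.37 ± 0.38. The single probe set without the family mark, rc_AA818144_at, was dim: it read 43.7 to 228.6 in young and 16.9 to 92.8 in 5 old arrays, with old replicate 6 at 715.8.

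Hp encodes haptoglobin, which binds free haemoglobin and hands it to the macrophage receptor CD163. K01933_at read 129.9, 284.2, 69.5, 94.5 and 133.1 in young replicates 1 to 5. The old arrays ranged from 70.2 through a median of 210 to 747.9. Only old replicates 3 and 5, at 682.4 and 747.9, exceeded every young array, and old replicates 4 and 6 lay below the young mean. The difference was 0.89 ± 0.67 (SE, 95% interval -0.50 to 2.29, limma adjusted p = 0.776). Without old replicate 5 it was 0.56 ± 0.67 and without old replicate 3 it was 0.59 ± 0.67, so each of these arrays moved the value by more than 1.5 times. The Hp difference kept its sign in all 26 alternatives, some of which, such as other filters, could not change it.

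Cp encodes ceruloplasmin, the copper-carrying ferroxidase of plasma. It had 3 probe sets, and both tested ones read higher in old. Y12178_at read 55.5, 153.1, 63.8, 243.0 and 69.3 in young replicates 1 to 5 and 100.3 to 433.5 in old, with a median of 292. All 6 old arrays lay above the young mean on the log2 scale and 3 of them above every young array. Its difference was 1.29 ± 0.61 (SE, 95% interval 0.01 to 2.57), with limma p-values of 0.0482 unadjusted and 0.66 adjusted.

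This Cp reading moved with the spike-in class. The bright young replicate 4 was the highest young array, and the dim old replicates 1 and 2 were the lowest old ones. With the class as a block the difference was 0.54 ± 0.59 (SE), among dim arrays 0.55 ± 0.70 and among bright ones 0.52 ± 1.24. The part of the class in the difference was not tested. L33869_at read 215.4, 341.6, 215.1, 366.7 and 116.6 in young and 141.5 to 475.7 in old, with a median of 365, and differed by 0.46 ± 0.50. That value was 0.21 ± 0.53 without young replicate 5 and 0.69 ± 0.48 without old replicate 3. The dim rc_AA817854_s_at read 22.8 to 173.6 in young and 17.0 to 225.6 in old. Slc40a1, the iron exporter whose iron ceruloplasmin oxidises, differed by 1.38 ± 0.67 (limma adjusted p = 0.661).

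**Figure D2:**
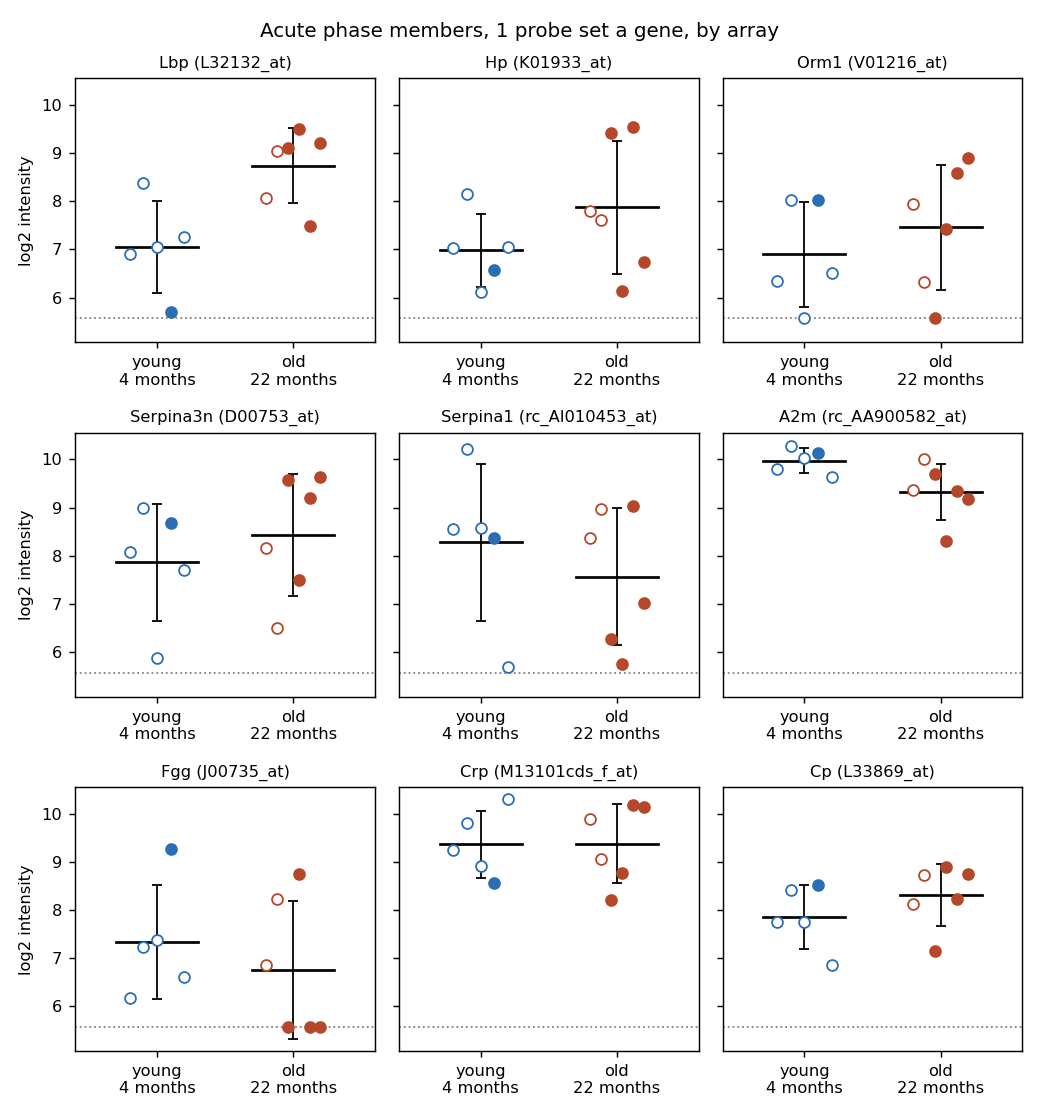
Log2 intensity (y axis, floored at the dotted line) of the brightest tested probe set of each of the 9 genes (for Crp, a family probe set) on each array, young on the left and old on the right of each panel. Points are arrays in order of replicate number, filled for bright and open for dim spike-ins, with the group mean as a bar and the SD as its error; the groups overlap in every panel, and 4 of the 6 old points lie above all young ones for Lbp.

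Orm1 encodes orosomucoid, or alpha-1-acid glycoprotein, a plasma carrier of basic drugs and steroids. V01216_at read 81.3, 260.0, 47.1, 262.3 and 91.4 in young replicates 1 to 5. In old it ran from 40.5 through a median of 209 to 480.4. The lowest old and the lowest young reading both lay under the floor of 47.4, where values have no order, and only old replicates 5 and 6 exceeded every young array. The difference was 0.56 ± 0.70 (SE, 95% interval -0.90 to 2.02, limma adjusted p = 0.868). Leaving out single arrays moved it from 0.23, without young replicate 3, to 0.94, without old replicate 3. It was 0.17 with spike-in class blocked and 1.04 ± 0.71 without the arrays of high GAPDH ratio.

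Serpina3n encodes a secreted serpin, one of the rat's expanded relatives of alpha-1-antichymotrypsin. D00753_at read 270.5, 506.9, 59.1, 411.9 and 207.6 in young replicates 1 to 5 and 90.7 to 790.1 in old, with a median of 437. Old replicates 3, 5 and 6 lay above every young array, and old replicates 2 and 4 lay below the young mean. The difference of 0.56 ± 0.66 (SE, 95% interval -0.82 to 1.94, limma adjusted p = 0.862) turned to -0.10 ± 0.68 with spike-in class blocked and to -0.33 ± 0.85 among the dim arrays. It was 0.064 without young replicate 3, the lowest array, 0.32 without old replicate 6, 0.33 without old replicate 3 and 0.94 ± 0.63 without old replicate 2.

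Orm1 and Serpina3n were among the member pairs that varied together most (Pearson r = 0.57 over the 11 arrays). Serpina1 with A2m (0.63) and Orm1 with Cp (0.61) had higher r values. The sequences in front of Orm1 and Serpina3n are shown as an example. These are the 250 bases before the start, from RefSeq on build GRCr8, 5′ to 3′, with matches to 3 short motifs in capitals: TTNNGNAA, a C/EBP-like motif, TTCNNNGAA, a STAT-like motif, and CTGGGAA, the core of an interleukin-6 response element, each searched on both strands.
Orm1 (chr5:81788259-81788508, + strand): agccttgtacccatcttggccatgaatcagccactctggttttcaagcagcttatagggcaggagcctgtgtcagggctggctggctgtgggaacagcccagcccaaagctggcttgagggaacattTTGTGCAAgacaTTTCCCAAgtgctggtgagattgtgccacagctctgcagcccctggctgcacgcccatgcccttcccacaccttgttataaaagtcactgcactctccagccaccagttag
Serpina3n (chr6:129088142-129088391, + strand): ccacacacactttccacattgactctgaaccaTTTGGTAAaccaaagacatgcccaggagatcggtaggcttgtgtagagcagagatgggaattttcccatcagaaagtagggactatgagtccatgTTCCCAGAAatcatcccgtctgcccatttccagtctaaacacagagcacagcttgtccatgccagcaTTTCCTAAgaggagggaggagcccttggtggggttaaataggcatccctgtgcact

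The Orm1 window holds 2 matches to the C/EBP-like motif, TTGTGCAA starting 123 bases and TTTCCCAA starting 111 bases before the start. The Serpina3n window holds 2 matches to it as well, and at 123 bases before the start the STAT-like match TTCCCAGAA, which overlaps a match to the interleukin-6 core on the other strand. Over all 33469 windows of this length, 37.2% held the C/EBP-like motif, 7.67% the STAT-like one and 9.56% the core. A match of these letters is a description and not a binding site. RefSeq gave promoter windows for 6 of the 9 members, namely Cp, Crp, Fgg, Orm1, Serpina1 and Serpina3n. The Cp window, not shown, holds TTGTGCAA as well. The motifs were picked with these sequences in view.

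Serpina1 encodes alpha-1-antitrypsin, the main plasma inhibitor of neutrophil elastase. Its tested probe set, rc_AI010453_at, read 375.8, 1182.0, 384.0, 331.2 and 51.5 in young replicates 1 to 5 and 53.8 to 521.2 in old, with a median of 230. The young group thus held both the highest and the lowest reading of all. The difference was -0.71 ± 0.76 (SE, 95% interval -2.31 to 0.88, limma adjusted p = 0.849). Single arrays weighed heavily on it: it was -0.23 without young replicate 2, -0.35 without old replicate 4, -0.45 without old replicate 3 and -1.36 ± 0.71 without young replicate 5. It turned to 0.066 without old replicates 3 and 4, which have the high GAPDH ratios and were the 2 lowest old arrays here, and to 0.42 ± 0.97 among dim arrays. The other Serpina1 probe sets were dim. X16273cds_at stayed at 50.8 or less on every array, and X16273cds_g_at read 18.4 to 74.3 apart from 245.1 in old replicate 5.

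A2m encodes alpha-2-macroglobulin, a broad protease trap. It was the best covered member, with 6 probe sets, and they did not go one way. The brightest, rc_AA900582_at, read 894.3, 1242.1, 1049.0, 1121.7 and 791.9 in young replicates 1 to 5. In old it ran from 317.2 through a median of 655 to 1026.7, and 4 of the 6 old arrays lay below every young one. Its difference was -0.66 ± 0.36 (SE, 95% interval -1.41 to 0.10), a ratio of 0.634, with limma p-values of 0.0846 unadjusted and 0.683 adjusted. It was lower in old in all 26 alternatives, by between -0.996 and -0.25, though some of these, such as other filters, could not change it.

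X13983mRNA_at read 430.8, 828.5, 675.0, 711.9 and 415.8 in young and 241.5 to 717.3 in old, and differed by -0.30 ± 0.41 (SE). M23566exon_s_at read 228.9 to 462.0 in young and 194.5 to 502.0 in old, and differed by -0.14 ± 0.47. Old replicate 4 was the lowest of all arrays on the first 2 of these probe sets, at 317.2 and 241.5, and without it X13983mRNA_at differed by -0.10. The first 2 varied together over the 11 arrays (Pearson r = 0.78).

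M22670cds_g_at went the other way, with a difference of 0.52 ± 0.71 (SE) that ran from 0.13 to 0.88 as single arrays were left out. Its readings fell into high and low values rather than into ages: old replicates 3 to 6 and young replicates 2 and 4 lay between 460.9 and 526.1, while the other 5 arrays lay between 64.2 and 170.0. All 5 arrays with bright spike-ins were among the 6 high ones. With the class as a block the difference turned to -0.54 ± 0.62, and within dim and bright arrays it was -0.84 ± 0.82 and -0.043. How the class comes into this reading was not tested.

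The dim rc_AI113046_at had the widest A2m difference of all, upward. It read 63.1, 41.6, 9.5, 13.9 and 9.5 in young and 96.8, 21.6, 155.6, 153.1, 179.8 and 533.0 in old replicates 1 to 6. Thus 5 of 6 old arrays lay above every young one, but 4 young arrays and 1 old array were under the floor. On floored log2 values the difference was 1.56 ± 0.52 (SE) in the fit without filter, with limma p-values of 0.0102 unadjusted and 0.721 adjusted. It was 1.08 with spike-in class blocked, and 0.41 among dim arrays. The last A2m probe set, M22670cds_at, was at or below 17.9 in young and reached 195.1 in old replicate 4. Readings of rc_AA900582_at and rc_AI113046_at ran against each other (Pearson r = -0.67), as did those of rc_AA900582_at and M22670cds_at (Pearson r = -0.80).

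**Figure D3:**
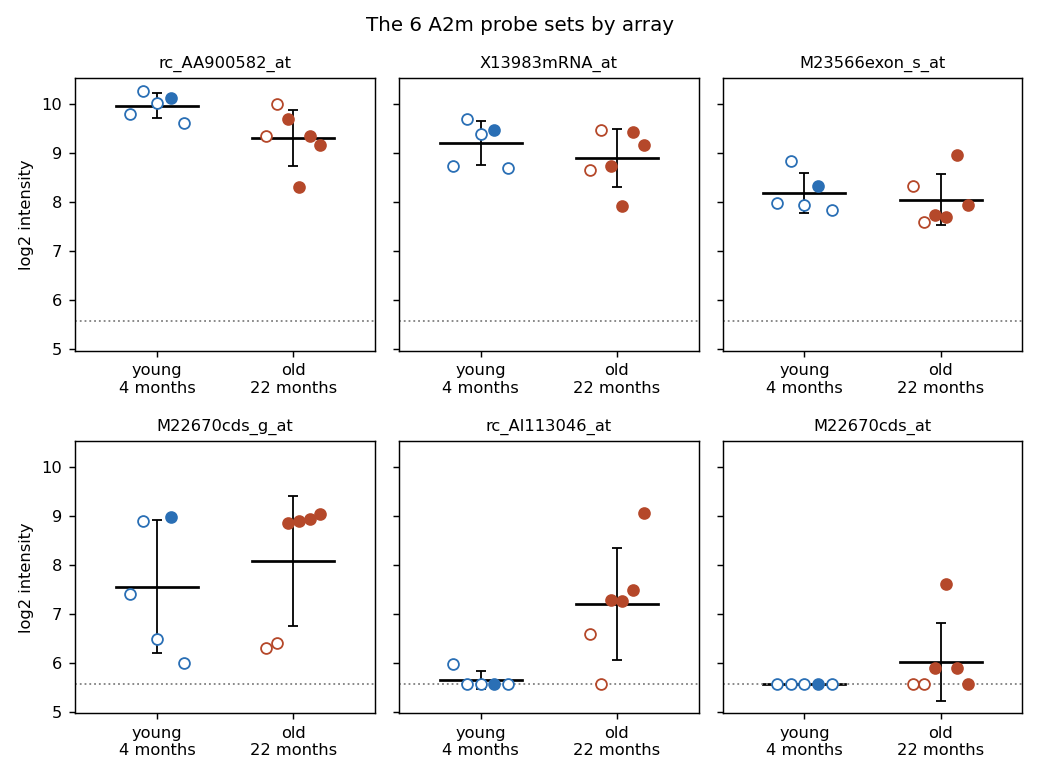
Log2 intensity (y axis, floored at the dotted line) of the 6 A2m probe sets on each array, young left and old right, with filled points for arrays of bright spike-ins, bars for the group mean and error bars for the SD. The upper 3 probe sets have lower old means, M22670cds_g_at splits into a high and a low set of arrays, and rc_AI113046_at has 5 of 6 old arrays above all young ones.

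Fgg encodes the gamma chain of fibrinogen, the clotting protein that thrombin turns into fibrin. J00735_at read 72.7, 150.4, 167.8, 621.6 and 97.5 in young replicates 1 to 5, and 18.3 to 428.9 in old, with a median of 80.1. Old replicates 3, 5 and 6 lay below the floor, while old replicates 2 and 4 lay above 4 of the 5 young arrays. The difference was -0.58 ± 0.74 (SE, 95% interval -2.13 to 0.96, limma adjusted p = 0.868), and ran from -0.98 without old replicate 4 to -0.098 without young replicate 4. Among dim arrays it turned to 0.69 ± 0.67. The dim J00735_g_at reached 238.3 in old replicate 3 and 101.9 in young replicate 3. Transcripts of both partner chains were dim too: Fga (M35601_at) read 16.0 to 168.7 in old and 62.4 to 230.2 in young, and Fgb (U05675_at) read 15.8 to 268.0 in old and 61.2 to 489.2 in young.

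The Fgg window in front of the gene held 2 copies of the interleukin-6 core and no match to the other motifs. They are shown because fibrinogen genes are textbook targets of interleukin-6, each in 30 bases of RefSeq sequence on GRCr8 with the core in capitals.
Fgg far copy (chr2:170652903-170652932, + strand): gtgtgcaaaatCTGGGAAtccctcggagca
Fgg near copy (chr2:170653011-170653040, + strand): tcccgcccagaCTGGGAAttcatataaagg

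The 9 genes did not vary as a block across the arrays. Taking the brightest tested probe set of each gene, the 36 pairs had Pearson r values from -0.57 to 0.63 over the 11 arrays, with a median of 0.06 and 21 above 0. Without Crp the 28 pairs left had the same median and range. The highest belonged to Serpina1 with A2m (0.63), Orm1 with Cp (0.61) and Orm1 with Serpina3n (0.57). The lowest were Hp with Fgg (-0.57) and Lbp with A2m (-0.51). Points in these correlations share array, age group and spike-in class. No single array was highest throughout: old replicate 6 had the top reading for 7 of the 21 probe sets, old replicate 5 for 4, and old replicate 4 and young replicate 2 for 3 each.

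**Figure D4:**
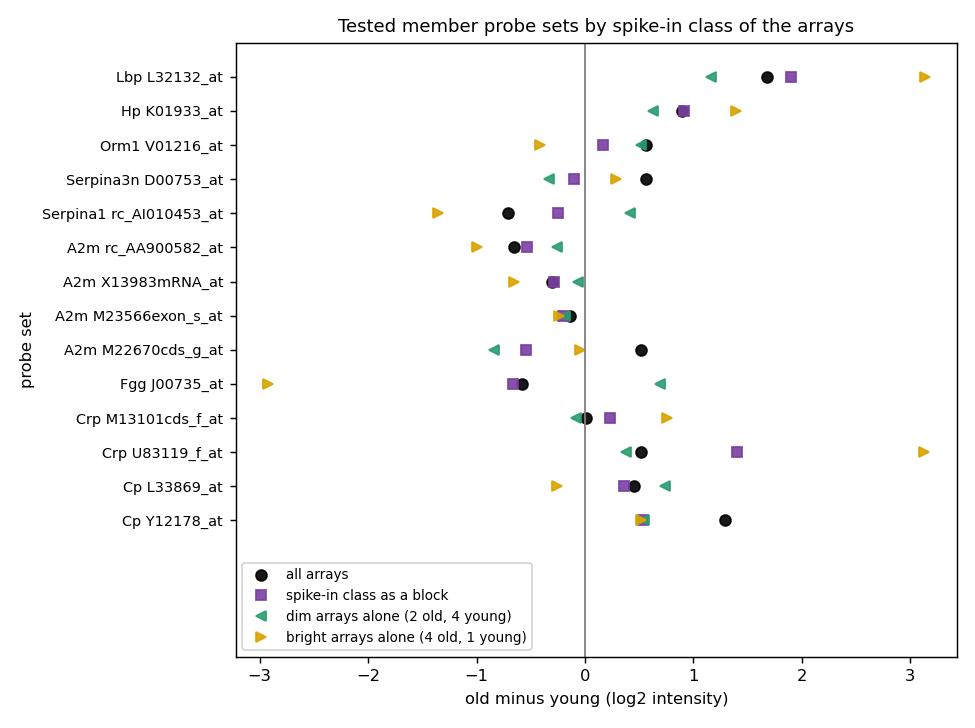
Old minus young difference (x axis, log2 intensity) of the 14 tested member probe sets (y axis) over all arrays, with spike-in class blocked, and within each class. Lbp, Hp, Cp Y12178_at and Crp U83119_f_at stay right of 0 in all 4 fits and 3 A2m probe sets stay left, while the signs of Orm1, Serpina3n, Serpina1, Fgg, the A2m probe set M22670cds_g_at, the Crp probe set M13101cds_f_at and the Cp probe set L33869_at depend on the fit.

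The genes whose readings ran most like each member were not other acute phase genes. For Lbp they were Pgf (r = 0.93) and Prpsap2 (0.90), for Hp Dlx5 (0.89) and Asl (0.82), and for Cp Htr2b (0.90) and Dus1l (0.89). For Orm1 they were Dlgap1 (0.93) and Aoc1 (0.92), for Serpina3n Tprg1l and Emd (both 0.87), and for Serpina1 Helz (0.94) and Fgf5 (0.92). A2m ran with Hmox2 (0.93) and Map2k5 (0.91), Fgg with Scfd2 (0.92) and Ntan1 (0.86), and Crp with Rpl19l4 (0.87) and Ddah1 (0.85). These are the highest values over 11 arrays among those of the 5244 tested probe sets that carry the single symbol of another gene. The median probe set of the table itself had a highest r of 0.92.

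Other acute phase genes gave a similar picture. Of 28 further positive acute phase proteins listed, 15 were on the array and 6 were tested, of which 5 were higher in old and 1 lower, with 0 past the adjusted threshold and a median difference of 0.48, against -0.01 for all 3206 genes tested. Serping1, the C1 inhibitor, differed by 1.13 ± 0.41 (SE, limma adjusted p = 0.56), and Fn1, fibronectin, by 0.72 ± 0.42. Of the negative acute phase proteins, whose liver output drops in inflammation, 5 of 13 were tested, 3 higher and 2 lower, with a median of 0.03. Alb is given above, and Apoa1, the apolipoprotein of HDL, differed by -0.74 ± 0.68.

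The signals that induce these genes showed 0 calls at each step. Of 4 tested cytokines 2 were higher and 2 lower, and Lif, a relative of interleukin-6, differed by -0.49 ± 0.56 (SE), Il1b by -0.23 ± 0.67. Il6 itself was dim, at or below 118.9 on 10 arrays and 1285.2 on old replicate 3. Among 6 tested receptors 4 were higher and 2 lower, with Il6r, the ligand-binding chain, at 1.14 ± 0.66 and Tnfrsf1a at -0.18 ± 0.36. Among 8 tested signal transducers 1 was higher and 7 lower, with a median of -0.43. Of all 3206 genes tested, 1593 were higher and 1613 lower. The transducer list holds both activators and inhibitors, so a shared direction has no single meaning for induction. Socs3, the feedback inhibitor of gp130, differed by -0.99 ± 0.69, and Nfkbia, the inhibitor of NF-kappaB, by -0.53 ± 0.39. Of 3 tested transcription factors 2 were higher, with Cebpb at 0.90 ± 0.62, and Nr3c1, the glucocorticoid receptor, was at -0.98 ± 0.59. Of the binding partners and targets 4 of 16 were tested, 2 higher and 2 lower, with F13a1, the clot-stabilising factor XIII chain, at -0.57 ± 0.48.

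Markers of other cell types and of atrium ranged from dim to bright, and none was at the floor on every array. All 12 hepatocyte markers listed were on the array and 7 were tested, 4 higher and 3 lower in old, with a median of 0.03. Their summed intensity ran from 3175 to 5726 in old and from 2655 to 6711 in young, and besides Alb only Otc, a urea cycle enzyme, had an unadjusted limma p under 0.05. For fat cells 5 of 8 markers were tested, 3 higher and 2 lower, and their sums ran from 7520 to 12998 in old and from 7531 to 15562 in young. Lpl, which heart muscle also makes, gave up to 10848 of these sums. The marker Adipoq was not among the annotated genes. For macrophages 3 of 8 were tested, 2 higher and 1 lower, with sums of 2622 to 36871 in old and 1675 to 3001 in young, and old replicate 3, at 35868 for Lyz2, held the top of that range, the other old arrays reading 739.0 to 3295.3 for it. Of 6 neutrophil markers 3 were on the array and 0 were bright enough to test. All 3 red cell markers on the array, of 6 listed, were higher in old, with sums of 13943 to 178153 in old and 2084 to 73348 in young. Hbb made up most of these sums on nearly every array. It read 591.5 on young replicate 4, against 33303.5 to 71155.5 on the other young arrays, and 13008.8 on old replicate 3. Hbb differed by 1.71 ± 0.93, Slc4a1 by 0.40 ± 0.40 and Alas2 by 0.12 ± 0.71. For atrium 3 of 4 markers were tested, all 3 higher, with Nppa, the atrial natriuretic peptide, at 1.18 ± 0.49 (SE). Their sums ran from 9876 to 97376 in old and from 3758 to 35863 in young, with old replicate 4 highest for Myl7 (77031) and Myl4 (2915.3). All 4 smooth muscle markers were higher, with a median of 1.05. Old replicate 4 was the highest array for Acta2 (13643) and Tagln (1877.9), and old replicate 3 for Myh11 and Cnn1. Both arrays have high GAPDH ratios. Of 6 fibroblast markers 3 were higher and 3 lower. Lum, lumican, differed by 1.19 ± 0.37 and Pdgfra by 0.60 ± 0.31, each with every old array above every young one. In the table as a whole, 0.973% of probe sets did not overlap, in either direction. Both tested endothelial markers, of 5 listed, were lower. No marker passed the adjusted threshold. The part of these cells in any member's difference was not tested.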

How the data were processed

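The deposited table holds 1 linear intensity per probe set and array, and the software behind it is not given in the sources used here. Across arrays the authors' intensity values had a common mean per array (500.47 to 500.96 after trimming 2% at both ends), which was kept, so changes are relative to the rest of the array. Values were raised to a floor of 47.4, the 20th percentile, and put on the log2 scale, so differences of dim genes can be understated. The floor can also enlarge a difference: that of Orm1 was 0.56 with it and 0.52 without it. After removal of 59 control probe sets and of those under the 40th percentile of mean log2 value, 5244 were fitted in limma 3.58.1 (R 4.3.3; lmFit, eBayes with trend), old against young, two-sided, with Benjamini-Hochberg adjustment over all of them at 0.05. The number of arrays limits precision. The median SE of a member's difference was 0.61.

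Where 1 value stands for a gene, it is that of the tested probe set with the highest mean. All member probe sets are named. Of the other listed genes, those with an unadjusted p under 0.05 and the 2 of smallest p in each pathway list were eligible; others named were chosen after their values were seen. For likeness, the 2 genes of highest r are named. The members and lists were chosen with earlier results of these data known. Symbols are from GEO's platform annotation. The fit was tested on simulated data. Alternatives were other floors, filters and scalings, no trend, array weights, a replicate block, spike-in class and brightness, and leaving out arrays. Other filters and no trend change the p-values but not a probe set's difference, so a sign kept in them is no support.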

Additional observations from a re-analysis of the deposited data

Results flagged for a closer look

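In 40 groups of member readings, 7 had 1 array far from the rest by Dixon's gap test, where chance gives about 1 in 20. Values are floored log2 intensities. For the dim probe sets the other arrays lay at or near the floor of 5.57, so a single reading above it is enough. The array stood high in Serpina1 X16273cds_g_at (old replicate 5, 7.94), A2m rc_AI113046_at (young replicate 1, 5.98), A2m M22670cds_at (old replicate 4, 7.61), Fgg J00735_g_at (young replicate 3, 6.67), Crp rc_AA818144_at (old replicate 6, 9.48) and Cp rc_AA817854_s_at (young replicate 4, 7.44). In the bright Crp U83119_f_at, young replicate 4 stood low at 5.98, against 9.10 to 9.93 in the other young arrays.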

How the results depend on the processing

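The count of member probe sets past the adjusted threshold stayed at 0 in all 26 alternatives. The count higher in old, 9 of 14 (49.4% of the table), was 15 of 21 without the filter (58.0%), 5 of 9 with the filter at the 60th percentile (44.3%), 7 of 14 without young replicate 4 (49.6%), and 7 to 10 of 14 as single arrays were left out. Non-overlapping groups went from 0 to 1 (Lbp) without young replicate 2, the highest young array for Lbp. The share of the table in that subset is not given, so the count is no result about the members. Among bright arrays alone, which hold 1 young array, non-overlap asks little and is not given. Median centring moved the median of all tested probe sets to -0.30, and quantile normalization to -0.11; Lbp then differed by 1.39 and 1.46. Signs turned as follows, and the cause was not tested. Among bright arrays Orm1 was at -0.41, Cp L33869_at at -0.26 and A2m M22670cds_g_at at -0.043. Among dim arrays Serpina3n was at -0.33, Serpina1 rc_AI010453_at at 0.42, Fgg J00735_at at 0.69, M22670cds_g_at at -0.84 and Crp M13101cds_f_at at -0.082. With spike-in class blocked Serpina3n was at -0.10 and M22670cds_g_at at -0.54, and with brightness as a covariate at -0.37 and -0.75. With array weights Serpina1 was at 0.11, Fgg at 0.33 and M13101cds_f_at at -0.055, and with median centring M13101cds_f_at was at -0.28. Without the arrays of high GAPDH ratio Serpina1 was at 0.066 and A2m M23566exon_s_at at 0.025. Leaving out 1 array turned M13101cds_f_at (range -0.19 to 0.25), U83119_f_at (-0.21 to 0.78, negative without young replicate 4) and M23566exon_s_at (-0.32 to 0.026, positive without young replicate 2). Same-numbered old and young arrays did not deviate together (r of -0.25 to 0.25, and 1 of 5 old arrays matched its own number best). No pairing by number was seen, but weak correlations cannot exclude shared handling. With the replicate block Lbp differed by 1.59, M13101cds_f_at turned to -0.14, and 0 members passed. Old replicate 6 has no young array of its number, so the block takes it out of the comparison. The differences are therefore those found without old replicate 6, where Lbp also differed by 1.59.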
